A study of Homo sapiens with 2 samples.

Results

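The apoptosome, caspase and inhibitor of apoptosis (IAP) genes described here are APAF1, CASP9, CASP2, CASP6, XIAP, BIRC2, BIRC3 and DIABLO. They were chosen by gene symbol and by their known roles in or around the mitochondrial route of apoptosis, with earlier results of these data known. They are 8 of the 57485 genes listed. RNA came from the human multiple myeloma (MM) line ARP1 carrying a lentiviral shRNA against SRD5A1 (steroid 5α-reductase type I), which the TRIPZ vector expresses from a doxycycline (Dox)-inducible promoter. Of the 2 libraries, 1 was made from these cells left untreated and 1 from these cells given Dox, and both carry the hairpin. The dose and duration of Dox for these libraries, and whether the cells were a pool or a single clone, are not given in the sources used here. For the library given Dox, the genotype field reads SRD5A2, whereas the title and the series design read SRD5A1.

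With 1 library per condition no difference has a replicate check, so none was tested and no p-value is given. Each difference compares these libraries, not the conditions. Levels are FPKM, that is counts scaled to the length of the transcripts and to the library total. Differences are log2 ratios of the FPKM plus 0.1 in the library labelled with Dox over the FPKM plus 0.1 in the library labelled without it. Brackets hold exact Clopper-Pearson 95% intervals, which were computed without the added 0.1 and describe counting error alone. For genes of low FPKM they are therefore not centred on the ratio given. For SRD5A1, which the hairpin targets, 13.04 FPKM were listed without Dox and 25.88 FPKM with it, a log2 ratio of 0.98 (0.90 to 1.08). The target of the hairpin was therefore higher where the label says it was knocked down, and every direction given here is between the libraries as they are labelled. Expected counts totalled 45918570 and 48728927. Of 8 plasma cell markers, 7 passed 1 FPKM and CD27 was at 0.06 and 0.18 FPKM. The 8 markers summed to 1870 and 1897 FPKM, and TNFRSF17 and SLAMF7 among them were past 2-fold higher. Markers of B, T, monocyte, erythroid, epithelial and fibroblast cells were each at or under 1.93 FPKM in both libraries, with CD2 and DCN at 0. Summed by cell type they ran from 0.12 to 2.71 FPKM and from 0.22 to 2.60 FPKM, and of those that reached 1 FPKM in either library HBB, with 6 and 18 counts, was past 2-fold. Their part in the results was not tested. In bulk RNA, fewer cells that express a gene and less RNA of it per cell cannot be told apart.

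In the mitochondrial pathway, cytochrome c leaves the mitochondria and binds APAF1, which assembles into the apoptosome and recruits and activates the initiator caspase CASP9. CASP9 cleaves and activates executioner caspases, and CASP6 acts downstream as an effector. XIAP binds and blocks active caspases, while BIRC2 (cIAP1) and BIRC3 (cIAP2) are ubiquitin ligases that act mainly on TNF receptor and NF-kB signalling. DIABLO (SMAC) is released together with cytochrome c and displaces IAPs from caspases. MM cells are known for frequent NF-kB pathway lesions, some of which delete the BIRC2 and BIRC3 locus.

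BIRC3 and BIRC2 are neighbours on the forward strand of chromosome 11. In GRCh38 with the GENCODE release 29 annotation, BIRC3 (ENSG00000023445.13) runs from 102317450 to 102339403 and BIRC2 (ENSG00000110330.8) from 102347211 to 102378670, which leaves 7.8 kb between them. Both were higher in the library labelled with Dox, as were other members such as XIAP and CASP9. DNA is printed for BIRC3 and BIRC2 alone, because only they held the motif matches described below. No binding or accessibility was measured. The sequences are from RefSeq (GRCh38.p14), 5′ to 3′ on the forward strand. The BIRC3 stretch is chr11:102317234-102317449, the 216 bases before its first annotated start, with matches to the NF-kB motif in capitals. The BIRC2 stretch is chr11:102347191-102347214, the 24 bases that end with a cyclic AMP response element (CRE), in capitals.
BIRC3: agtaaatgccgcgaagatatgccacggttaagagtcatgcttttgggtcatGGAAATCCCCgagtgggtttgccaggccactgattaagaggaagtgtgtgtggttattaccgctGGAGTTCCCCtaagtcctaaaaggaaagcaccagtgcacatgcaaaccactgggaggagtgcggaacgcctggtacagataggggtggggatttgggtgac
BIRC2: cctcggccgggcgcgcTGACGTCA

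The NF-kB matches end 156 and 92 bases before the first annotated start of BIRC3. The CRE of BIRC2 spans the first annotated start of that gene and ends 3 bases past it. All 8 genes had RefSeq promoter windows, 16 in all, each from 250 bases before to 50 bases after a start. On both strands they were searched for the NF-kB motif, the CRE (TGACGTCA) and the CARE motif bound by ATF4 (TGATGNAAT). Of 35116 windows of this length, 5.91% held an NF-kB match, 0.738% held 2 or more, 1.85% held a CRE and 0.991% held a CARE. Among the 8 genes only BIRC3 held NF-kB matches and only BIRC2 held a CRE, while none held a CARE. Counted by window, 1 of the 16 held an NF-kB match, close to the share over all windows, and that window held both matches. The CRE is a single site that lies in 2 overlapping windows of BIRC2. The motifs were chosen after the values and the windows had been read, no match overlaps another, and a match is a description of letters, not of a bound site.

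Among the 8 genes, the 3 IAPs were higher in the library labelled with Dox, by 1.67 to 2.15-fold, and CASP2 and CASP6 were lower. CASP9 was higher by 1.44-fold, while APAF1 and DIABLO lay close to the median of all genes. BIRC3 was the only one of the 8 past 2-fold. Of the 14859 genes that reached 1 FPKM in either library, called genes tested here, 23.4% were past 2-fold, 17.0% higher and 6.41% lower, so 1 of 8 is no more than the background. All 8 genes passed 1 FPKM. The median log2 ratio of the 8 was 0.37, with 6 of 8 above 0, beside 0.15 and 58.4% over all genes tested. Of the genes past 2-fold, 2521 were higher and 953 lower, whereas after division by TMM factors 1946 were higher and 1527 lower. That scaling brings the median of all genes tested to -0.05, and relative to the median of 0.15 the 8 ratios run from -0.84 for CASP2 to 0.95 for BIRC3.

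**Figure D1:**
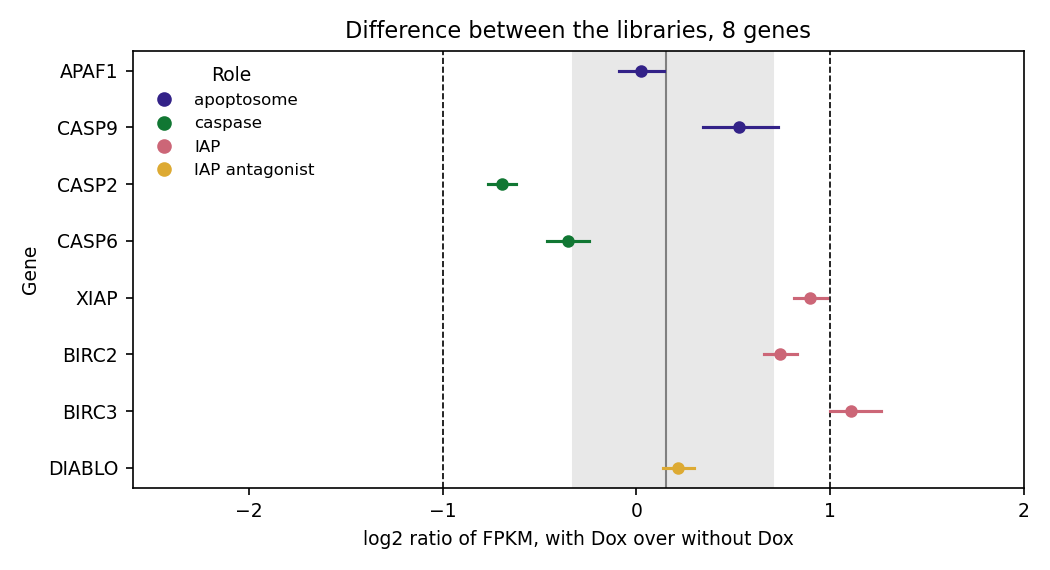
Log2 ratio of FPKM (library labelled with Dox over library labelled without Dox) for each of the 8 genes, coloured by role, with 95% counting intervals as horizontal lines. The grey band is the interquartile range of all genes tested (-0.32 to 0.71) around their median of 0.15, the dashed lines mark 2-fold, and only BIRC3, at 1.11, lies past them.

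APAF1 is the scaffold of the apoptosome. APAF1 (ENSG00000120868.13, chromosome 12, 98645141 to 98735433, forward strand) was listed at 4.85 FPKM without Dox and at 4.94 FPKM with it, from 1153 and 1310 counts. The log2 ratio was 0.03 (-0.09 to 0.14), an interval that holds 0, and 43.1% of genes tested lay below it. On this scale the difference in APAF1 was within the counting error. When FPKM are divided by TMM factors the log2 ratio was -0.18, outside that interval, so its sign rests on the scaling.

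CASP9 is the initiator caspase that the apoptosome activates. CASP9 (ENSG00000132906.17, chromosome 1, 15490832 to 15526534, reverse strand) was listed at 4.38 and 6.36 FPKM, from 353 and 587 counts, the fewest of the 8 genes. The log2 ratio was 0.53 (0.34 to 0.73), higher with Dox by more than the counting error and inside the interquartile range of all genes tested. The ratio of APAF1 to CASP9 FPKM was 1.11 (0.98 to 1.25) without Dox, where the levels could not be told apart, and 0.78 (0.70 to 0.86) with Dox. With no length, on counts scaled to the library total, the ratio was 3.27 and 2.23, so it was lower with Dox on both scales, while the order of APAF1 and CASP9 within a library rests on their estimated lengths.

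CASP2 is an initiator caspase that is activated in the PIDDosome, the complex it forms with PIDD1 and CRADD. CASP2 (ENSG00000106144.19, chromosome 7, 143288215 to 143307696, forward strand) was listed at 28.11 FPKM without Dox and 17.36 FPKM with Dox, from 3537 and 2864 counts. The log2 ratio of -0.69 (-0.77 to -0.62) was the lowest of the 8, and 12.5% of genes tested lay below it. CASP2 ranked 3 of 8 by FPKM without Dox and 5 of 8 with it, below XIAP and BIRC2.

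CASP6 is an effector caspase that cleaves lamins. CASP6 (ENSG00000138794.9, chromosome 4, 109688622 to 109703583, reverse strand) was listed at 45.44 and 35.59 FPKM, from 1507 and 1268 counts, with a log2 ratio of -0.35 (-0.46 to -0.24). It too was lower with Dox by more than the counting error, and 23.8% of genes tested lay below it. The ratio of CASP6 to CASP2 FPKM was 1.62 (1.52 to 1.72) without Dox and 2.05 (1.92 to 2.19) with it. On counts scaled to the library total it was 0.426 and 0.443, so most of that shift came with the estimated length of CASP2. MCUB, listed under its older symbol CCDC109B, overlaps CASP6 on the opposite strand and held 2695 and 2636 counts. Whether the counting used strand is not given in the sources used here, so reads of the overlap cannot be assigned with certainty.

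XIAP is the IAP that inhibits caspases directly, CASP9 among them. XIAP (ENSG00000101966.12, chromosome X, 123859724 to 123913979, forward strand) was listed at 15.26 FPKM without Dox and 28.48 FPKM with Dox, from 1794.55 and 2994.18 expected counts. Its log2 ratio was 0.90 (0.82 to 0.99), short of 2-fold, and 80.7% of genes tested lay below it. The counts of XIAP are not whole, so some of its reads were shared with other genes, while those of all other members except DIABLO are whole.

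BIRC2, or cIAP1, was listed at 19.95 FPKM without Dox and 33.42 FPKM with Dox, from 1739 and 3566 counts. Its log2 ratio was 0.74 (0.66 to 0.83), with 76.2% of genes tested below it. It was the most abundant of the 3 IAPs per length in both libraries, at 1.31 (1.22 to 1.40) and 1.17 (1.12 to 1.23) times the level of XIAP.

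BIRC3, or cIAP2, is a well-known NF-kB target and the closest relative of BIRC2. BIRC3 was listed at 3.36 FPKM without Dox and 7.35 FPKM with Dox, from 681 and 1612 counts. The log2 ratio of 1.11, with an interval from the 2-fold line itself up to 1.26, was the highest of the 8, and 85.1% of genes tested lay below it. With a pseudocount of 1 FPKM the log2 ratio was 0.94, under the 2-fold line, and after division by TMM factors it was 0.90. BIRC3 was the least abundant of XIAP, BIRC2 and BIRC3 in both libraries, at 0.168 (0.154 to 0.184) of the BIRC2 level without Dox and 0.220 (0.207 to 0.233) with Dox. Both the upstream NF-kB matches printed for BIRC3 and this ratio are descriptions, and their relation was not tested.

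DIABLO, or SMAC, is the mitochondrial antagonist of the IAPs. DIABLO (ENSG00000184047.17, chromosome 12, 122207663 to 122226568, reverse strand) was listed at 42.37 and 49.27 FPKM, from 2226.38 and 2757.87 expected counts, a log2 ratio of 0.22 (0.14 to 0.30). This is close to the median of all genes, with 53.3% of them below, and after division by TMM factors the ratio was 0.01. The annotation holds a second gene of this name on the same strand, which the tables list under a clone name with 9.53 and 0 counts, and B3GNT4 on the opposite strand, with 187.7 and 409.13 counts.

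The order of the 8 levels differed between the libraries. In the library labelled without Dox, CASP6 and DIABLO led with overlapping intervals of 43.2 to 47.8 and 40.6 to 44.2 FPKM, followed by CASP2, BIRC2 and XIAP. APAF1 and CASP9 followed with intervals that overlap, and BIRC3 was lowest. In the library labelled with Dox, DIABLO led, CASP6 and BIRC2 followed at 33.7 to 37.6 and 32.3 to 34.5 FPKM with overlapping intervals, and XIAP, CASP2, BIRC3, CASP9 and APAF1 came after them in this order. The intervals of all other neighbours in these orders were apart.

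**Figure D2:**
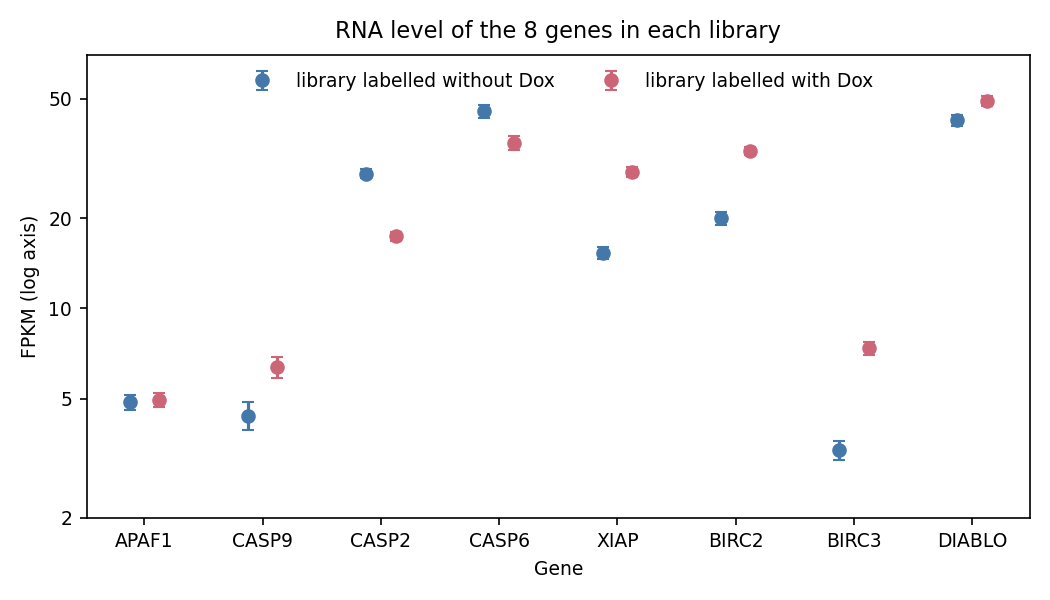
FPKM (log axis) of each gene in the libraries labelled without Dox (blue) and with Dox (red), with 95% counting intervals as bars and 1 library per colour. The IAPs XIAP, BIRC2 and BIRC3 sit higher in red, CASP2 and CASP6 sit lower, and the APAF1 points, 4.85 and 4.94 FPKM, overlap.

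Set against DIABLO, the summed RNA of XIAP, BIRC2 and BIRC3 was more abundant in the library labelled with Dox. The ratio of DIABLO to XIAP was 2.78 (2.61 to 2.96) without Dox against 1.73 (1.64 to 1.82) with it. On counts scaled to the library total it was 1.24 and 0.92, so it was lower with Dox on both scales. The order of DIABLO and XIAP in the library labelled with Dox rests on their estimated lengths. The 3 IAPs summed to 38.57 and 69.25 FPKM, which is 0.91 and 1.41 times the FPKM of DIABLO. This does not extend to the IAP family as a whole, as 5 other IAP genes summed to 99.79 and 99.57 FPKM. HTRA2, another IAP antagonist, was at 25.19 and 36.06 FPKM. The caspases CASP9, CASP2 and CASP6 summed to 77.93 and 59.31 FPKM. These ratios and sums were chosen after the values had been seen and are descriptions of RNA, not of protein amounts.

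An FPKM ratio holds a part from the counts and a part from the effective length, which the tables give per library as a mean over the transcripts of a gene weighted by their estimated abundance. For CASP2 the effective length was 2740 bases without Dox and 3386 bases with Dox, a log2 ratio of 0.31. Of genes tested, 7.32% had a larger length shift, counting both directions. Counts scaled to the library total alone (CPM) were 77.0 and 58.8 for CASP2, a log2 ratio of -0.39 beside the -0.69 of FPKM, so the rest of its lower FPKM came with a longer estimated transcript mix. XIAP moved the other way, from 2561 to 2157 bases, a log2 ratio of -0.25, and 4.09% of genes tested lay below it. Its CPM, 39.1 and 61.4, gave 0.65 beside the 0.90 of FPKM. For BIRC2 the length was 1898 and 2190 bases, and its CPM of 37.9 and 73.2 gave 0.95 beside 0.74. On counts alone, BIRC2 was thus nearer to 2-fold than XIAP, the reverse of their order by FPKM. For BIRC3 the length ratio was 0.03, and its CPM of 14.8 and 33.1 gave 1.16.

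For XIAP the annotation makes the length readable, because its transcripts fall into separate length classes. There are 3 transcripts of 8415 to 8591 bases and 8 of 157 to 764 bases, so the mean length of 2804 and 2403 bases puts the share of the long class at 26.1 to 32.1% without Dox against 20.9 to 27.2% in the other library. These shares overlap. The long class then accounts for 3.98 to 4.89 FPKM without Dox and 5.96 to 7.74 FPKM with Dox, ranges that do not overlap. Most of the FPKM of XIAP was thus assigned to short annotated transcripts, of which 2 of the 8 are coding, beside 3 of the 3 long ones. FPKM are per length, so this is not a share of the reads. For BIRC3, the 3 transcripts of 4238 to 5197 bases held at least 88.2% and 90.1% of its FPKM. For CASP2 the lengths left the share of the 4 transcripts of 2166 bases or more anywhere from 39.7 to 100% without Dox and from 53.8 to 100% with it. These bounds rest on the estimated lengths alone and carry no counting interval.

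Around these genes, 37 pathway genes were listed by role, of which 30 passed 1 FPKM. Of the 30, 2 were past 2-fold higher, 2 were past 2-fold lower and 26 were within it. Over all genes tested the shares were 17.0% higher and 6.41% lower. The 30 had a median log2 ratio of -0.03 with 14 above 0, beside 0.15 and 58.4% over all genes tested. With TMM factors and with DESeq2 size factors 1 of the 30 was past 2-fold higher and 4 were lower, as NAIP came within 2-fold and PTMA and PARP1 passed it. With these scalings the lower genes were also more numerous over all 14859 genes tested. There, 1946 were higher and 1527 lower with TMM factors, and 1980 and 1495 with DESeq2 size factors.

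Of cytochrome c and the apoptosome regulators, 6 of 6 genes were within 2-fold, where 23.4% of all genes tested were past it. CYCS, which encodes cytochrome c, was listed at 301.19 and 255.48 FPKM, a log2 ratio of -0.24 (-0.27 to -0.21). PTMA, which encodes prothymosin alpha, an inhibitor of apoptosome assembly, was at 3010.92 and 1566.23 FPKM, a log2 ratio of -0.94 (-0.96 to -0.93). ANP32A, which promotes apoptosome activity, was at 481.8 and 463.29 FPKM. With TMM factors the ratio of PTMA was -1.15, past 2-fold lower. PTMA has many processed pseudogenes, so its counts may hold reads shared with them, which was not tested. The PIDDosome partners of CASP2 did not share its lower level, with PIDD1 at 8.46 and 8.98 FPKM and CRADD at 10.88 and 12.78 FPKM, both with intervals that hold 0.

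Of 6 caspases of other branches, 4 passed 1 FPKM and none was past 2-fold, beside 23.4% of all genes tested. CASP8, the initiator of the death receptor pathway, was at 52.62 and 96.46 FPKM, a log2 ratio of 0.87 (0.82 to 0.93), and CASP4 at 33.86 and 38.97 FPKM.

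The other IAP genes did not all share the direction of XIAP, BIRC2 and BIRC3. BIRC5 (survivin) was listed at 66.71 and 63.3 FPKM and BIRC6 at 30.34 and 30.41 FPKM, with log2 ratios of -0.08 and 0.00. NAIP was past 2-fold higher, at 2.74 and 5.86 FPKM and a log2 ratio of 1.07 (0.89 to 1.30), but it was 0.88 with a pseudocount of 1 FPKM and 0.87 with TMM factors. NAIP has near-identical copies and its counts are not whole. BIRC7 and BIRC8 had 0 counts in both libraries, which allows up to 0.065 and 0.062 CPM. Among the antagonists and binders, HTRA2 was at 25.19 and 36.06 FPKM, a log2 ratio of 0.52 (0.42 to 0.62). XAF1, an antagonist of XIAP, stayed under 1 FPKM, with 7 counts without Dox and 62 with Dox, and SEPTIN4, listed as SEPT4, had 17 and 15.

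Of the partners of the cIAPs, TRAF1, an adaptor that binds BIRC2 and BIRC3 and another NF-kB target, was past 2-fold higher. It was listed at 0.57 FPKM without Dox and 2.12 FPKM with Dox, from 159 and 562 counts, a log2 ratio of 1.73 (1.63 to 2.15), which was 0.99 with a pseudocount of 1 FPKM and then just within 2-fold. The other 5 partners were within 2-fold. TAB1, which links XIAP to TAK1, was at 22.76 and 20.41 FPKM, TRAF2 at 20.65 and 18.28 FPKM, and MAP3K14, the kinase that the cIAPs keep low, at 8.52 and 10.58 FPKM.

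Substrates of the executioner caspases held both lower genes. LMNA, which encodes lamin A/C, a known CASP6 substrate, was at 108.77 FPKM without Dox and 38.13 FPKM with Dox, a log2 ratio of -1.51 (-1.57 to -1.46). DFFA (ICAD), the inhibitor of the apoptotic nuclease DFFB, was at 25.78 and 11.81 FPKM, a log2 ratio of -1.12 (-1.20 to -1.05), although on CPM, with no length, it was within 2-fold. PARP1 was at 374.03 and 193.58 FPKM, a log2 ratio of -0.95 (-0.97 to -0.93) that was -1.16 with TMM factors, and LMNB1 at 137.12 and 119.26 FPKM. Of the 8 substrates that passed 1 FPKM, 2 were above 0, with a median log2 ratio of -0.55, beside 58.4% and 0.15 over all genes tested. Cleavage of these proteins is not read by RNA levels.

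**Figure D3:**
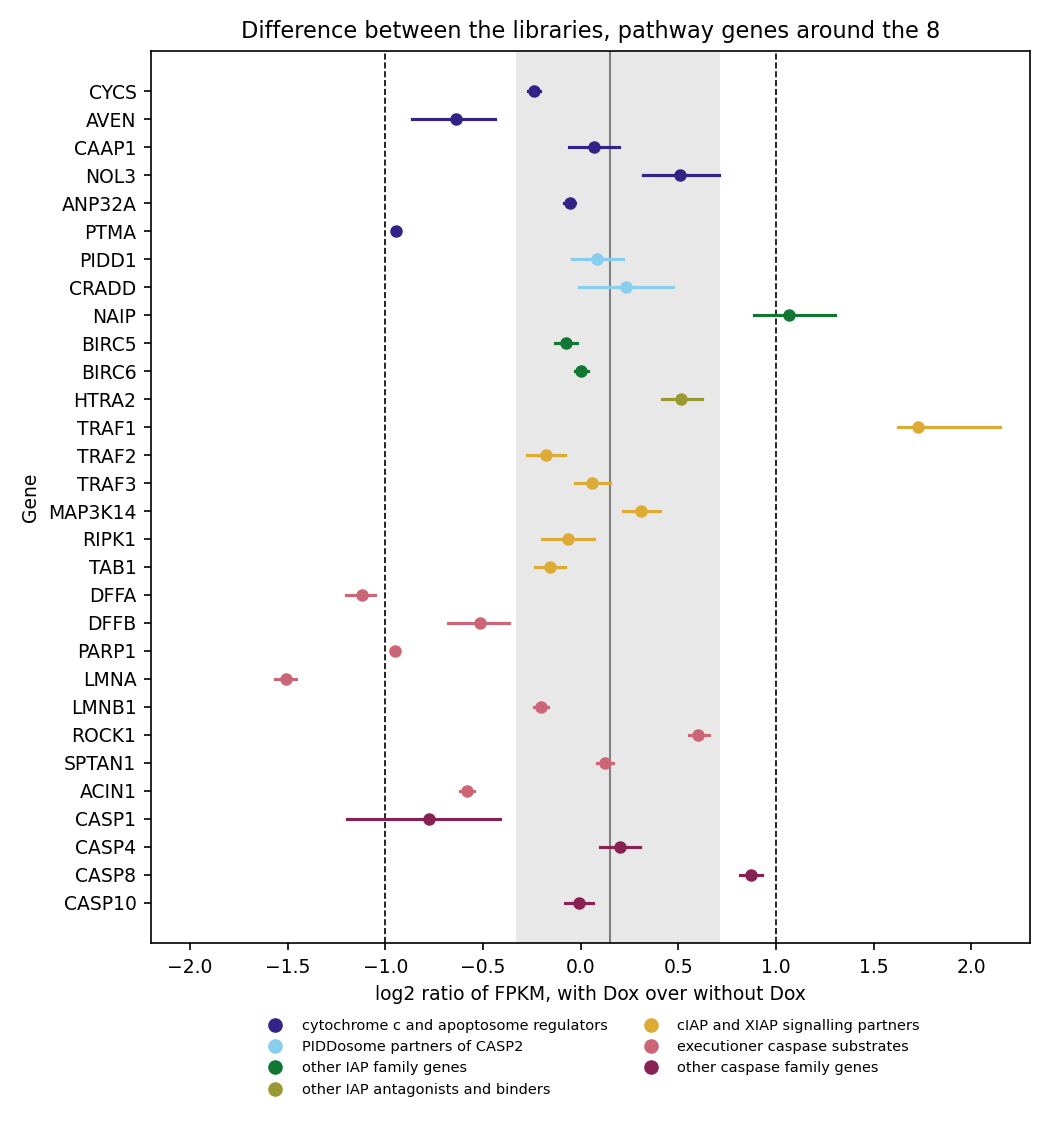
Log2 ratio of FPKM (library labelled with Dox over library labelled without Dox) for the 30 pathway genes among those tested, coloured by list, with 95% counting intervals as horizontal lines. The band and solid line give the interquartile range and the median of all genes tested, the dashed lines mark 2-fold, and TRAF1, NAIP, DFFA and LMNA lie past them.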

How the data were processed

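Poly(A) RNA of 2 ARP1 libraries, 1 labelled without and 1 labelled with Dox, was sequenced in pairs. Per gene, for 57485 genes, the authors deposited FPKM, TPM, an expected count, length and effective length, laid out as RSEM writes them. The submitters' processing notes name Bowtie 0.12.2, HISAT2 2.1.0, StringTie 1.3.4d and the build hg19, with no role. The tables hold no coordinates, and 202888 of their 204675 transcripts are in the GENCODE release 29 transcripts, so GRCh38 coordinates of that release are given. GO text columns were not used.

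Log2 ratios of FPKM used a pseudocount of 0.1, so that changes of low genes are understated, and covered genes that reached 1 FPKM in either library. Deposited FPKM were rebuilt from counts, totals and effective lengths. Counting intervals are exact binomial for ratios and exact Poisson for levels. The floor for a gene at 0 was 3 counts. TMM factors came from edgeR 4.0.16 and size factors from DESeq2 1.42.0 in R 4.3.3, over genes with at least 10 counts, with no test. Python 3.11.15, pandas 2.3.3, numpy 2.4.6, scipy 1.17.1 and matplotlib 3.10.9 did the rest, and the steps were tested on simulated data. The 8 genes and all lists were chosen with earlier results of these data known. Named genes are the 8, SRD5A1, and in each list those past 2-fold and at least the 2 with the highest FPKM. CYCS, MAP3K14 and SEPTIN4 were added for their role after their values were seen. Some genes of the lists are not reported here and were left out of their counts.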

Additional observations from a re-analysis of the deposited data

How the results depend on the processing

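No paired analysis was possible because each condition has 1 library, and for the same reason no replicate could be left out. The number of the 8 genes past 2-fold was 1, and it was 0 with a pseudocount of 1 FPKM, after division of FPKM by TMM factors and with counts divided by DESeq2 size factors. At a 1.5-fold threshold it was 4 of 8, beside 6646 of the 14859 genes tested. Their median log2 ratio of 0.37 was 0.17 with TMM factors, 0.22 with DESeq2 size factors and 0.53 over the 7 genes with at least 5 FPKM in 1 library. The pathway genes past 2-fold numbered 4 of 30, and 2 with a pseudocount of 1 FPKM and 10 at 1.5-fold. With TMM or DESeq2 factors 5 were past it, 1 higher and 4 lower, beside 3473 and 3475 of the 14859 genes tested. All genes past 2-fold numbered 3474 of 14859, and 2257 with a pseudocount of 1 FPKM and 6646 at 1.5-fold. They numbered 6632 of 57485 with no filter and 1859 of 10480 with at least 5 FPKM. Of the 8 genes, 7 kept the sign of their log2 ratio under the pseudocount, TPM, TMM, DESeq2 and CPM alternatives, and APAF1 ran from -0.18 to 0.12. BIRC3 ran from 0.90 to 1.21, XIAP from 0.43 to 0.99, BIRC2 from 0.53 to 0.95 and CASP2 from -0.90 to -0.39. On CPM the ratio of BIRC2 to XIAP was 0.97 without Dox and 1.19 with it, against 1.31 and 1.17 on FPKM, so its direction between the libraries turned. The causes were not tested, apart from the pseudocount, filter and threshold settings, which act by their construction.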

Other observations

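For each of the 8 genes, the nearest non-overlapping coding gene with at least 1 FPKM on either side gave the following values. Distances are from the GRCh38 annotation, and MCUB and B3GNT4, which overlap CASP6 and DIABLO, were left out. DNAJC16, 0.3 kb from CASP9, was at 6.12 FPKM without Dox and 9.07 FPKM with Dox, a log2 ratio of 0.56 beside the 0.53 of CASP9. EFHD2, 60.5 kb from CASP9 on the other side, was at 47.79 and 17.06 FPKM, a log2 ratio of -1.48. TMEM123, 17.7 kb past BIRC2, was at 161.19 and 198.24 FPKM, a log2 ratio of 0.30, below those of BIRC2 and BIRC3. STAG2, 46.2 kb past XIAP, was at 63.76 and 67.33 FPKM, a log2 ratio of 0.08 beside the 0.90 of XIAP. IKBIP, which adjoins APAF1, was at 15.07 and 10.27 FPKM, a log2 ratio of -0.55. VPS33A, 3 kb from DIABLO, was at 20.59 and 31.17 FPKM, a log2 ratio of 0.60 beside the 0.22 of DIABLO. GSTK1, 17.4 kb before CASP2, was at 81.96 and 73.78 FPKM, a log2 ratio of -0.15, and ZYX, 73.4 kb past it, was at 26.41 and 13.23 FPKM, a log2 ratio of -0.99 beside the -0.69 of CASP2. PLA2G12A, 6.4 kb from CASP6, was at 17.88 and 26.29 FPKM, a log2 ratio of 0.55, and SEC24B, 147.7 kb away on the other side, was at 16.52 and 12.47 FPKM, a log2 ratio of -0.40 beside the -0.35 of CASP6. The log2 ratios were 0.11 for THOC2 (126.7 kb before XIAP), 0.04 for MLXIP (60.3 kb from DIABLO), 0.25 for UHRF1BP1L (1293 kb past APAF1) and 0.49 for ARHGAP42 (1323.5 kb before BIRC3). BIRC2 and BIRC3 are each the nearest such gene of the other. These genes were chosen by position, and no relation between neighbours was tested.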
